A study of Mus musculus with 2 samples.

Results

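Lymphatic endothelial nuclei were examined in single-nucleus RNA data from mouse mesenteric perivascular fat, the adipose tissue that wraps the vessels of the gut mesentery. A barcode was taken as lymphatic when it had 500 or more UMIs (unique molecular identifiers, 1 per captured transcript), under 5% mitochondrial UMIs, and at least 4 UMIs over 2 or more of Prox1, Reln, Mmrn1 and Flt4, making up at least 8 of every 10000 UMIs. Barcodes with more than 2 UMIs over F13a1, Mrc1, Pax5, Themis and Muc16, genes of macrophages, B cells, T cells and mesothelium, were left out. The rule found 414 lymphatic nuclei among 19480 nuclei that passed the depth and mitochondrial limits. Of these, 141 came from the Prdm16 cKO library and 273 from the flox control library. The cKO mice carried the floxed Prdm16 gene together with an adiponectin-promoter Cre transgene (AdipoQCre), which acts in adipocytes, and the control mice carried the floxed gene without Cre. All animals were 11 weeks old, and the number of animals pooled per library was not given in the sources used here. Nuclei were released from snap-frozen fat, purified on an iodixanol gradient and sequenced with the 10x Genomics 3' chemistry.

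Lymphatic endothelial cells line the vessels that drain fluid, immune cells and, in the mesentery, chyle from the gut. The transcription factor Prox1 sets and keeps their identity. Flt4 (VEGFR3) is the receptor for the lymphatic growth factor VEGF-C, Mmrn1 is an extracellular multimerin, and Reln is a large secreted glycoprotein released by lymphatic endothelium. Initial (capillary) lymphatics are known for Lyve1, a hyaluronan receptor, and for the chemokine Ccl21a, whereas collecting vessels and their valves are known for the transcription factors Foxc2 and Gata2 and for a fibronectin-rich matrix.

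Each genotype was represented by 1 library, so no difference between genotypes could be tested, and every interval below is a 95% interval that covers counting error only. The matrices held 8086 barcodes with 70895490 UMIs in the cKO library and 12060 barcodes with 108987031 UMIs in the control library. Lymphatic nuclei contributed 849104 UMIs in the cKO library and 1659813 in the control library, with median depths of 5039 and 4977 UMIs and medians of 2438 and 2364 detected genes. The depth of single lymphatic nuclei ran from 501 to 27047 UMIs in the cKO library and from 1049 to 40679 in the control library. The libraries shared 28 barcode sequences, and none of these was lymphatic in both libraries, although 3 lymphatic nuclei had a barcode that also occurred in the other library. Xist gave 3 UMIs in cKO and 2 UMIs in control lymphatic nuclei, while the Y-linked gene Uty stood at 358 and 319 CPM (the UMIs of a gene scaled to the total of the class), so both libraries carried Y-linked transcripts and next to no Xist. The series text speaks of thoracic and abdominal fat and of total RNA, whereas each sample is labelled as nuclear RNA of mesenteric fat, which is what is written here.

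The label was checked on genes that the rule did not use. Levels are given as CPM of the UMIs summed over all nuclei of a class in a library, and vascular endothelial nuclei (234 in the cKO and 406 in the control library) were chosen by the same thresholds on Flt1, Adgrl4, Cyyr1 and Ptprb. Klhl4, a kelch-family gene known from lymphatic endothelium, had 722 CPM in cKO and 686 CPM in control lymphatic nuclei, against 76.0 and 94.4 CPM in vascular endothelial nuclei of the cKO and control libraries. Lyve1 had 127 and 145 CPM in cKO and control lymphatic nuclei, against 5.33 and 7.74 CPM in the vascular nuclei. Pdpn, the membrane glycoprotein podoplanin, had 76.6 and 97.0 CPM in cKO and control lymphatic nuclei, against 2.0 and 4.42 CPM in the vascular nuclei. All 3 genes were higher in lymphatic than in vascular endothelial nuclei of each library, by 9.50-fold in the cKO and 7.27-fold in the control library for Klhl4.

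Genes shared by all endothelium were also present. Cdh5, the VE-cadherin of endothelial junctions, had 131 and 129 CPM in cKO and control lymphatic nuclei, against 131 and 175 CPM in vascular nuclei. Tie1, an endothelial receptor tyrosine kinase, had 122 and 127 CPM in cKO and control lymphatic nuclei, against 104 and 114 CPM in vascular nuclei. In T and B cell nuclei Cdh5 had 9.45 and 18.7 CPM and Tie1 2.95 and 7.70 CPM in the cKO and control libraries. Pecam1, an adhesion molecule of endothelium and leukocytes, was lower, with 436 and 575 CPM in cKO and control lymphatic nuclei against 1202 and 1403 CPM in vascular nuclei. It did not set lymphatic nuclei apart from T and B cell nuclei, which had 459 and 535 CPM in the cKO and control libraries. Sox17, a transcription factor of arterial endothelium that neither rule used, had 1.18 and 3.62 CPM in cKO and control lymphatic nuclei, from 1 and 6 UMIs, against 59.3 and 61.6 CPM in vascular nuclei. The macrophage gene Csf1r was at 10.6 CPM in cKO and 4.82 CPM in control lymphatic nuclei. Klhl4, Lyve1, Pdpn, Cdh5 and Tie1 were thus above their T and B cell level, as the label says, and Pecam1 was not.

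The 4 genes of the rule are given as a description. Prox1 had 749 and 842 CPM in cKO and control lymphatic nuclei, Reln 3031 and 2686 CPM, Mmrn1 1200 and 1219 CPM, and Flt4 543 and 471 CPM. In vascular endothelial nuclei of the cKO and control libraries the same genes reached at most 31.0 CPM. On GRCm38, Prox1 (ENSMUSG00000010175) spans chromosome 1 from 190118035 to 190170714, Reln (ENSMUSG00000042453) chromosome 5 from 21884454 to 22344702, Mmrn1 (ENSMUSG00000054641) chromosome 6 from 60924976 to 60989378, and Flt4 (ENSMUSG00000020357) chromosome 11 from 49609263 to 49652739. All 4 genes were detected in 94 of the 141 cKO and 168 of the 273 control lymphatic nuclei, and 18 cKO and 35 control nuclei passed with only 2 of them. UMIs of these genes also occurred in nuclei of classes that should lack them. Prox1 was seen in 84.4% of cKO and 90.1% of control lymphatic nuclei, against 5.74% of cKO and 6.65% of control T and B cell nuclei, which had median depths of 5490 and 4959 UMIs. With each nucleus thinned to 1000 UMIs, Prox1 was seen in 42.4% of cKO and 46.9% of control lymphatic nuclei.

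**Figure D1:**
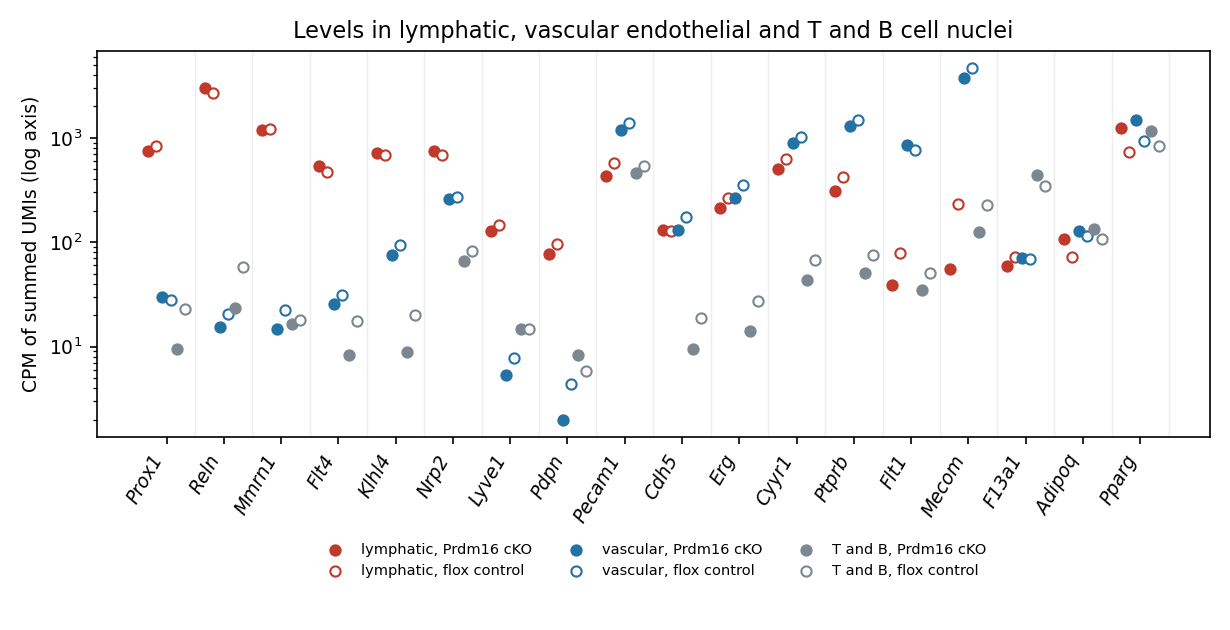
Level of 18 genes, in CPM of summed UMIs on a log axis, in lymphatic endothelial (red), vascular endothelial (blue) and T and B cell nuclei (grey), with filled circles for the Prdm16 cKO and open circles for the flox control library. Prox1, Reln, Mmrn1, Flt4, Klhl4, Lyve1 and Pdpn are high in red and low in blue and grey, Flt1 and Mecom the reverse between red and blue, and Pparg is as high in T and B cell as in lymphatic nuclei.

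Nuclei near the limits of the rule were few. Just inside, at 8 to 12 rule UMIs per 10000, lay 3 cKO and 16 control nuclei with 598 and 537 CPM of Klhl4. Just outside, at 4 to 8 per 10000, lay 6 cKO and 8 control barcodes with 332 and 284 CPM of Klhl4. A further 48 cKO and 104 control barcodes met the lymphatic thresholds and were left out through the exclusion genes. Of these, 22 cKO and 56 control barcodes were within the limit when Mrc1 was not counted. Mrc1 is a mannose receptor that macrophages and lymphatic endothelium both use. These barcodes held 56 and 159 Mrc1 UMIs and 23 and 48 F13a1 UMIs in the cKO and control libraries. Mrc1 by itself thus did not pass the limit in every one of them. This Mrc1 subset had 566 and 597 CPM of Klhl4 and 298 and 166 CPM of Lyve1 in the cKO and control libraries. The macrophage gene Csf1r was at 12.2 and 9.48 CPM, against 10.6 and 4.82 CPM in lymphatic nuclei. F13a1, which counts towards the limit, was higher, at 140 and 114 CPM against 58.9 and 72.9 CPM in lymphatic nuclei. Cd163 was at 0.0 and 23.7 CPM against 10.6 and 12.7 CPM, and Adgre1 at 18.3 and 7.11 CPM against 11.8 and 10.2 CPM. Macrophage RNA in this subset was thus not excluded. The other 26 cKO and 48 control barcodes had 97.4 and 35.8 CPM of Csf1r and median depths of 12398 and 8266 UMIs. The share of lymphatic nuclei is therefore given below both with and without Mrc1 among the exclusion genes.

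The genes that most set lymphatic nuclei apart from all other kept nuclei, outside the rule, are given next. The other kept nuclei include the 48 cKO and 104 control barcodes that met the lymphatic thresholds and were left out through the exclusion genes. Among the 12 with the largest ratio, Scn3a, a sodium channel of neurons, had 89.5 and 122 CPM in cKO and control lymphatic nuclei. Its level was 41.4-fold above that in the other nuclei of the cKO library and 59.7-fold above that in the other nuclei of the control library. Apba2, an adaptor protein that binds the amyloid precursor protein, had 372 and 286 CPM in cKO and control lymphatic nuclei, 79.1-fold and 55.6-fold above the rest. Nrxn3, a neurexin of synaptic adhesion, had 1340 and 1312 CPM in cKO and control lymphatic nuclei, 54.8-fold and 38.9-fold above the rest. Tbx1, a transcription factor required for lymphatic vessel growth in mice, had 76.6 and 70.5 CPM in cKO and control lymphatic nuclei, 70.8-fold and 44.0-fold above the rest. Also among the 12 were the adhesion receptor Adgrg3, with 200 and 184 CPM in cKO and control lymphatic nuclei, and Clca3a1, a surface protein of lymphatic endothelium in mice, with 217 and 218 CPM. Others of the 12 were Sh3gl3, Klhl4, Slc45a3 and the non-coding or predicted transcripts A830019P07Rik and 4833422C13Rik, all at least 37.1-fold above the rest in each library. Since the nuclei were picked on gene counts, these ratios describe them and were not tested.

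Set against vascular endothelium, lymphatic nuclei were at least 2-fold higher in each library for 289 of the 4413 genes compared (6.55%) and at least 2-fold lower for 94 (2.13%). A gene was compared when lymphatic nuclei of both libraries together held at least 100 of its UMIs, so genes that are near 0 in lymphatic nuclei, such as Sox17, were not compared. Of the 18 compared members of a list of lymphatic markers outside the rule, 16 were higher and none was lower. Of 15 genes shared by all endothelium, none was higher and 1, Pecam1, was lower. Of 13 vascular endothelial genes, 6 were lower and 1, the butyrophilin-like gene Btnl9, was higher, and 3 of the 6 (Flt1, Adgrl4 and Ptprb) had served to choose the vascular nuclei. Nuclei that passed the vascular thresholds as well made up 60 (42.6%) of the cKO and 134 (49.1%) of the control lymphatic nuclei and were counted as lymphatic only. Among the vascular rule genes, Cyyr1 had 505 and 632 CPM and Ptprb 307 and 418 CPM in cKO and control lymphatic nuclei, and Flt1 had 38.9 and 79.5 CPM.

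Receptors and ligands of vessel growth factors differed in level between the endothelia. Apart from Flt4, whose higher level the rule fixed, the VEGF-C co-receptor Nrp2 was higher in lymphatic nuclei, with 751 and 686 CPM in cKO and control lymphatic nuclei against 260 and 271 CPM in vascular nuclei. Nrp1, the co-receptor of VEGF-A, was lower, with 153 and 176 CPM in cKO and control lymphatic nuclei against 607 and 674 CPM in vascular nuclei. Vegfc itself had 16.5 and 39.2 CPM in cKO and control lymphatic nuclei, from 14 and 65 UMIs, against 378 and 480 CPM in vascular nuclei. The ligand was thus far more abundant in vascular than in lymphatic nuclei, although it held too few lymphatic UMIs to enter the counts above. Angpt2, a ligand of the receptor Tek, had 37.7 and 54.2 CPM in cKO and control lymphatic nuclei against 8.0 and 9.95 CPM in vascular nuclei.

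Of 19 compared axon guidance genes, 5 were higher in lymphatic nuclei and 2, Nrp1 and Efna5, were lower, beside 6.55% and 2.13% of all genes. The same shares are the background for the lists that follow, and Sema3a, Sema3d, Nrp2 and Tbx1 also stand in the lymphatic marker list. Ntn1 (netrin 1), a secreted guidance cue, had 1234 and 1227 CPM in cKO and control lymphatic nuclei against 171 and 240 CPM in vascular nuclei. Sema3d, a secreted semaphorin, had 720 and 840 CPM in cKO and control lymphatic nuclei against 76.0 and 113 CPM in vascular nuclei. Sema3a, which guides lymphatic valve formation in mice, had 451 and 404 CPM in cKO and control lymphatic nuclei against 57.3 and 34.3 CPM in vascular nuclei. The membrane semaphorin Sema6a had 1344 and 1532 CPM in cKO and control lymphatic nuclei against 569 and 624 CPM in vascular nuclei. All 4 cues were at least 2-fold higher in lymphatic nuclei of each library.

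Among genes of leukocyte traffic, 3 of 9 were higher and 1 was lower. Il7, the cytokine that keeps naive and memory lymphocytes alive, had 203 and 183 CPM in cKO and control lymphatic nuclei against 10.7 and 19.5 CPM in vascular nuclei. Cd200, an inhibitory ligand for myeloid cells, was lower, with 104 and 98.8 CPM in cKO and control lymphatic nuclei against 317 CPM in the vascular nuclei of each library. The chemokine scavenger Ackr2, with 30 and 57 UMIs, was below the limit for comparison but stood at 35.3 and 34.3 CPM in cKO and control lymphatic nuclei, against 2.67 and 0.369 CPM in vascular nuclei. Ccl21a had 56.5 CPM in cKO lymphatic nuclei (48 UMIs) and 21.1 CPM in control lymphatic nuclei (35 UMIs), against 1.33 and 0.737 CPM in vascular nuclei. The mouse genome holds near-identical copies of this chemokine, so how its reads were divided among them is uncertain.

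Matrix and growth factor signalling showed a split as well. Lama4, a laminin chain of endothelial basement membrane, had 1608 and 1595 CPM in cKO and control lymphatic nuclei against 647 and 637 CPM in vascular nuclei. Itgav and Itgb3, which pair as a vitronectin receptor, were also higher, whereas Eln (elastin) and Itga1 were lower, leaving 4 higher and 2 lower of 22 matrix and integrin genes. Tgfb2, a TGF-beta ligand, had 175 and 176 CPM in cKO and control lymphatic nuclei against 30.7 and 26.9 CPM in vascular nuclei. Its receptor gene Tgfbr2 had 591 and 650 CPM in cKO and control lymphatic nuclei against 213 and 227 CPM in vascular nuclei. Bmp6 was lower, with 84.8 and 140 CPM in cKO and control lymphatic nuclei against 601 and 597 CPM in vascular nuclei. In the BMP and TGF-beta list 3 of 12 genes were higher and 1 was lower. None of 6 Notch genes and none of 8 clock genes differed by 2-fold in both libraries, and of 18 lipid handling genes only Scarb1, a lipoprotein receptor, was past the limit, with lower levels in lymphatic nuclei. The valve and collector list had 5 of 10 genes higher and none lower, and the capillary list 5 of 9 higher and none lower, with Reln, a rule gene, among these 5.

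Lymphatic nuclei were not uniform in Reln, and a second set of genes moved with it. Nuclei with at least 10 Reln UMIs per 10000 are called Reln-high, and nuclei with under 5 are called Reln-low. Reln-low nuclei numbered 27 of 141 in the cKO library (19.1%, 13.01 to 26.6%) and 72 of 273 in the control library (26.4%, 21.2 to 32.0%). Reln-high nuclei numbered 99 in the cKO (70.2%, 61.9 to 77.6%) and 178 in the control library (65.2%, 59.2 to 70.8%), with 15 cKO and 23 control nuclei in between. No Reln UMI was found in 15 of the 27 cKO and 46 of the 72 control Reln-low nuclei, although their median depth was higher, at 6485 and 7211 UMIs in Reln-low against 4809 and 4594.5 UMIs in Reln-high nuclei of the cKO and control libraries. Reln is itself a rule gene, so Reln-low nuclei entered through Prox1, Mmrn1 and Flt4. Because the split was made from these counts, what follows is a description with no test, given for each library on its own.

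The lymphatic genes did not all behave alike between the subsets, and Prox1, Mmrn1 and Flt4 are genes through which Reln-low nuclei had to enter. Prox1 had 636 and 997 CPM in cKO and control Reln-low nuclei, against 866 and 802 CPM in Reln-high nuclei. Klhl4, which the rule did not use, had 708 and 789 CPM in cKO and control Reln-low nuclei, against 849 and 646 CPM in Reln-high nuclei. Mmrn1 was lower, with 839 and 752 CPM in cKO and control Reln-low nuclei against 1528 and 1576 CPM in Reln-high nuclei. Flt4 was also lower, with 291 and 206 CPM in cKO and control Reln-low nuclei against 705 and 632 CPM in Reln-high nuclei. Pdpn, another gene outside the rule, was seen in 18.5% of cKO and 4.17% of control Reln-low nuclei, against 32.3% and 41.0% of Reln-high nuclei and 5.26% and 3.69% of T and B cell nuclei of the cKO and control libraries. Ccl21a was seen in 1 of 27 cKO and 0 of 72 control Reln-low nuclei, a 0 that allows up to 4.99%, against 28 of 99 cKO and 32 of 178 control Reln-high nuclei. Adipocyte marker UMIs were at 29.2 and 19.4 per 10000 in cKO and control Reln-low nuclei and at 28.3 and 19.8 in Reln-high nuclei. These levels were close in the subsets of each library.

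Of 4081 genes compared between the subsets, 119 (2.92%) were at least 2-fold higher and 159 (3.9%) at least 2-fold lower in Reln-low than in Reln-high nuclei of both libraries. Foxp2, a forkhead transcription factor known from lymphatic collecting vessels of mice, had 3380 and 4245 CPM in cKO and control Reln-low nuclei, against 668 and 688 CPM in Reln-high nuclei. Nrxn3 had 4559 and 3065 CPM in cKO and control Reln-low nuclei, against 377 and 360 CPM in Reln-high nuclei. Foxp2 (ENSMUSG00000029563) lies on chromosome 6 from 14901349 to 15441977 and Nrxn3 (ENSMUSG00000066392) on chromosome 12 from 88722876 to 90334935. Both levels were several times higher in Reln-low nuclei. Nucleus by nucleus, 21 of 27 cKO and 62 of 72 control Reln-low nuclei had 20 or more Foxp2 and Nrxn3 UMIs per 10000, against 9 of 99 cKO and 16 of 178 control Reln-high nuclei. In the nuclei between, 2 of 15 in the cKO and 8 of 23 in the control library did.

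**Figure D2:**
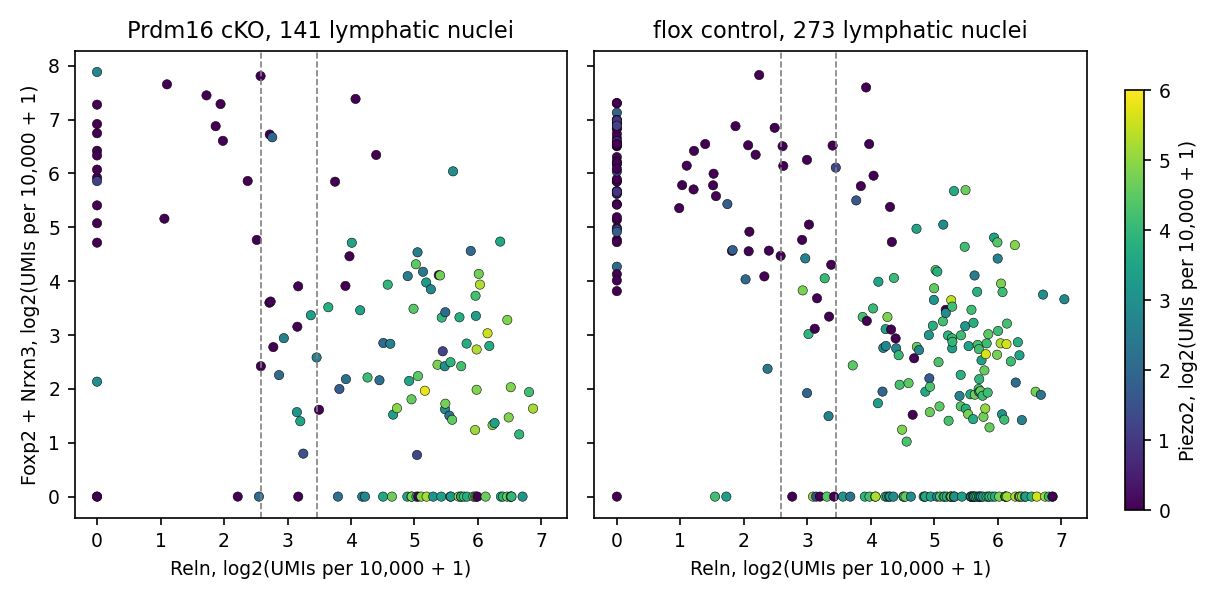
Each point is 1 lymphatic nucleus of the Prdm16 cKO (left) or flox control library (right), placed by its Reln level and by its summed Foxp2 and Nrxn3 level, both as log2 of UMIs per 10000 plus 1, and coloured by Piezo2 on the same scale; dashed lines mark 5 and 10 Reln UMIs per 10000. Nuclei with little Reln sit high for Foxp2 and Nrxn3 and are dark (little Piezo2), and nuclei with much Reln sit low and are green to yellow, with few in between.

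Examples of the genes higher in Reln-low nuclei, picked after their values were seen, follow. Tgfa, a ligand of the EGF receptor, had 905 and 1203 CPM in cKO and control Reln-low nuclei, against 46.4 and 42.4 CPM in Reln-high nuclei. Vwf, the von Willebrand factor of the vascular wall, had 872 and 620 CPM in cKO and control Reln-low nuclei, against 42.7 and 100 CPM in Reln-high nuclei. Fn1 (fibronectin), a matrix protein of lymphatic valve leaflets, had 466 and 426 CPM in cKO and control Reln-low nuclei, against 55.6 and 67.3 CPM in Reln-high nuclei. These genes encode products that leave the cell. Among membrane proteins, the laminin receptor subunit Itgb4 had 187 and 120 CPM in cKO and control Reln-low nuclei, against 11.1 and 10.4 CPM in Reln-high nuclei. Cacna1e, a voltage-gated calcium channel, had 516 and 424 CPM in cKO and control Reln-low nuclei, against 59.3 and 60.04 CPM in Reln-high nuclei. Efnb2, an ephrin needed for collecting lymphatics and their valves in mice, had 510 and 499 CPM in cKO and control Reln-low nuclei, against 182 and 151 CPM in Reln-high nuclei. The largest ratios were those of Mdga2, a synaptic adhesion regulator, with 241 and 166 CPM in cKO and control Reln-low nuclei against 5.56 and 4.14 CPM in Reln-high nuclei, and of Car8, a carbonic anhydrase relative without enzyme activity, with 538 and 496 CPM against 20.4 and 13.5 CPM.

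The genes lower in Reln-low nuclei included Lyve1, a marker of initial lymphatics, and others picked in the same way. Lyve1 had 11.0 and 9.11 CPM in cKO and control Reln-low nuclei, against 184 and 234 CPM in Reln-high nuclei. It was seen in 7.41% of cKO and 4.17% of control Reln-low nuclei, against 54.5% and 61.8% of Reln-high nuclei, and T and B cell nuclei of the cKO and control libraries gave 8.61% and 7.88%, so the Reln-low share was no higher than background. Piezo2, a mechanically gated ion channel, had 60.4 and 63.8 CPM in cKO and control Reln-low nuclei, against 1465 and 1506 CPM in Reln-high nuclei. It was seen in 18.5% of cKO and 29.2% of control Reln-low nuclei, against 90.9% and 92.7% of Reln-high nuclei, with 23.9% and 24.4% of T and B cell nuclei as the background. Tgfb2 had 21.9 and 25.5 CPM in cKO and control Reln-low nuclei, against 254 and 251 CPM in Reln-high nuclei. Il7 had 93.3 and 76.5 CPM in cKO and control Reln-low nuclei, against 263 and 257 CPM in Reln-high nuclei. Of the genes that led the lymphatic nuclei, Apba2 had 21.9 and 12.8 CPM in cKO and control Reln-low nuclei, against 530 and 460 CPM in Reln-high nuclei. This lead gene of the whole class was thus mostly found in Reln-high nuclei. Fgf12, an intracellular regulator of sodium channels, had no UMI in cKO Reln-low nuclei and 38.3 CPM in control Reln-low nuclei, against 545 and 494 CPM in Reln-high nuclei, which makes it at least 33.1-fold lower in the cKO library when the 0 is set to 3 counts over the subset. Netrin 1 was lower as well, with 609 and 762 CPM in cKO and control Reln-low nuclei against 1584 and 1554 CPM in Reln-high nuclei. Sema6a had 571 and 745 CPM in cKO and control Reln-low nuclei, against 1795 and 2098 CPM in Reln-high nuclei.

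**Figure D3:**
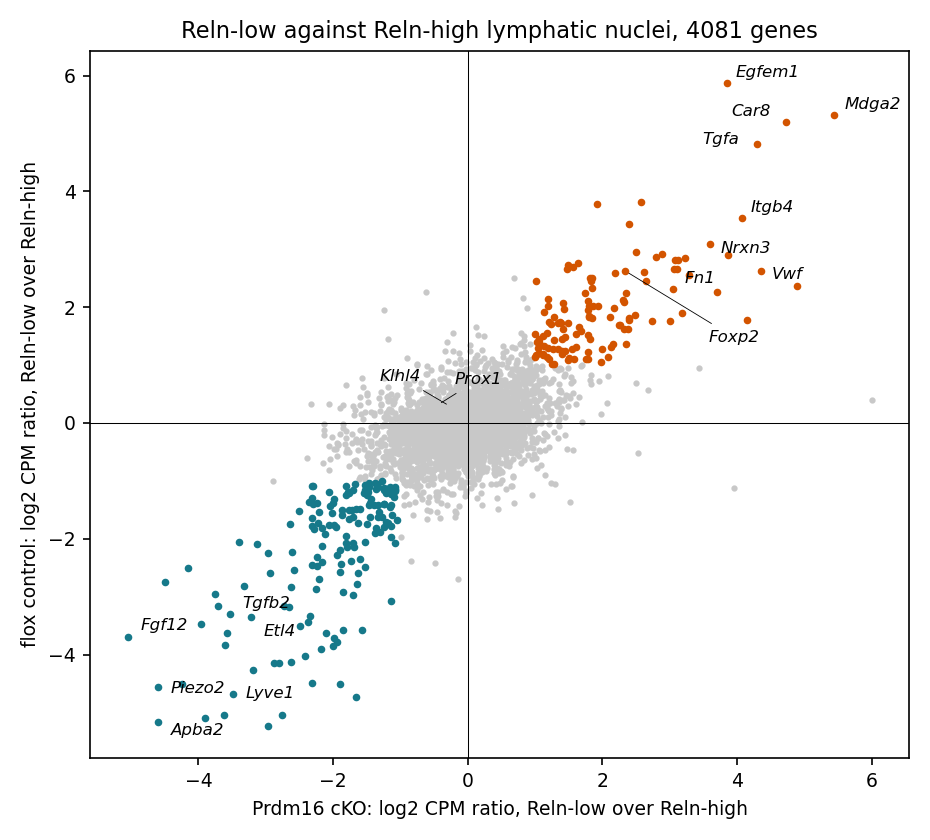
Each point is 1 of 4081 genes, with the log2 CPM ratio of Reln-low over Reln-high lymphatic nuclei in the Prdm16 cKO library (x) and in the flox control library (y); orange and teal mark genes at least 2-fold higher or lower in both. Tgfa, Car8 and Mdga2 lie at the top right and Piezo2, Apba2 and Lyve1 at the bottom left, with Prox1 and Klhl4 near 0.

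The named lists did not divide cleanly along this split. Of 10 valve and collector genes 1, Fn1, was higher in Reln-low nuclei and none was lower, beside 2.92% and 3.9% of all genes, so the list did not stand out. Of 8 capillary genes, with Reln left out because it made the split, none was higher and 3 were lower. Foxc2, the best known valve gene, had only 4 cKO and 9 control UMIs over all lymphatic nuclei, with 16.5 and 10.9 CPM in cKO and control Reln-low nuclei against 1.86 and 1.04 CPM in Reln-high nuclei. Gata2 had 43.9 and 71.1 CPM in cKO and control Reln-low nuclei, against 12.98 and 15.5 CPM in Reln-high nuclei. Both transcription factors were thus higher in Reln-low nuclei, at counts too small to enter the comparison. Of 13 vascular endothelial genes, Vwf, Cdh13 and Nos3 were higher and Adgrl4 was lower in Reln-low nuclei. Ackr4, a scavenger of the chemokine CCL21, had 104 and 128 CPM in cKO and control Reln-low nuclei, against 18.6 and 16.6 CPM in Reln-high nuclei. Dab2, an endocytic adaptor related to the reelin adaptor Dab1, had 1031 and 1485 CPM in cKO and control Reln-low nuclei, against 447 and 441 CPM in Reln-high nuclei. A split by any UMI of the valve and collector list was not informative, because 139 of 141 cKO and 270 of 273 control lymphatic nuclei had one.

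With the lymphatic nuclei that also pass the vascular rule left out, 52 genes were higher and 101 lower in Reln-low nuclei, of 2177 that still held 100 UMIs. This alternative was added after the data had been seen.

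Lymphatic nuclei made up 1.79% of kept nuclei in the cKO library (1.51 to 2.11%) and 2.35% in the control library (2.08 to 2.64%), a difference of -0.56 percentage points with a counting interval of -0.97 to -0.14. With Mrc1 taken out of the exclusion genes the shares were 2.07% in the cKO and 2.83% in the control library. Without lymphatic nuclei that also pass the vascular rule they were 1.03% and 1.20%. All these shares were lower in the cKO library, and no interval of the difference was computed for the alternatives. Lower shares were not confined to lymphatic nuclei. Vascular endothelial nuclei made up 2.97% of kept nuclei in the cKO and 3.497% in the control library. T and B cell nuclei made up 2.66% in the cKO and 3.497% in the control library. The share of adipocyte nuclei was higher in the cKO library, at 40.01% against 37.93%. Dissection of the fat and purification of the nuclei can set such shares, and with 1 library per genotype they cannot be told apart from an effect of genotype.

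Prdm16, the deleted gene, encodes a zinc-finger cofactor of brown and beige adipocyte programmes, and the Cre driver acts in adipocytes. In lymphatic nuclei Prdm16 (ENSMUSG00000039410, chromosome 4 from 154316125 to 154636873) had 11 UMIs in the cKO library, 12.95 CPM (6.47 to 23.2), and 40 UMIs in the control library, 24.1 CPM (17.2 to 32.8). Of the 40 control UMIs 22 came from 1 nucleus of 30703 UMIs, and without the top nucleus of each library the log2 ratio of cKO over control was -0.20 in place of -0.90 (-2.01 to 0.09). Vascular endothelial nuclei had 221 CPM in the cKO and 309 CPM in the control library, and adipocyte nuclei had 24.6 CPM in the cKO and 18.7 CPM in the control library. The floxed exons were not given in the sources used here, and 3' counts outside the deleted part do not report the deletion, so these values check nothing.

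Among the 4413 genes compared in lymphatic nuclei, 249 (5.64%) were at least 1.5-fold higher and 180 (4.08%) at least 1.5-fold lower in the cKO than in the control library, with a median log2 ratio of -0.00. Scaling by TMM factors turned this split around, to 198 higher and 248 lower. The genes higher in cKO lymphatic nuclei were mostly ones that adipocyte nuclei hold at higher levels. Of the 249 higher genes 203 (81.5%) had a higher level in adipocyte nuclei than in lymphatic nuclei of both libraries, against 17 of the 180 lower genes (9.44%) and 1589 of all 4413 (36.0%). Of 322 genes at least 2-fold less abundant in lymphatic than in adipocyte nuclei, 133 (41.3%) were higher and 2 (0.621%) lower in the cKO library. Of 843 genes at least 2-fold more abundant in lymphatic than in adipocyte nuclei, 11 (1.3%) were higher and 78 (9.25%) lower in the cKO library.

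UMIs of adipocyte markers were more frequent in lymphatic nuclei of the cKO library, and their source was not tested. The 7 adipocyte markers, among them Adipoq, Plin1, Cidec and Pparg, made up 32.7 of 10000 UMIs in cKO and 21.6 of 10000 in control lymphatic nuclei, or 36.5% and 23.6% of their level in adipocyte nuclei of the cKO and control libraries. Single lymphatic nuclei differed less at the median, 22.5 in the cKO and 18.2 in the control library, than at the 90th percentile, 58.0 and 35.5. Some lymphatic nuclei of each library also met the adipocyte thresholds and were counted as lymphatic only. Vascular endothelial nuclei held 37.8 per 10000 in the cKO and 29.0 in the control library. T and B cell nuclei held 34.7 in the cKO and 27.8 in the control library, so the markers were higher in the cKO library in all 3 classes. Adipoq, the adipocyte hormone adiponectin, was seen in 35.5% of cKO and 33.7% of control lymphatic nuclei, against 45.9% and 38.9% of T and B cell nuclei of the cKO and control libraries. Genes of pancreatic acinar cells, from a neighbouring organ, were also higher in every class of the cKO library, with 2.21 and 1.07 per 10000 in cKO and control lymphatic nuclei and 4.62 and 0.854 in T and B cell nuclei. With only lymphatic nuclei under 30 adipocyte marker UMIs per 10000 kept, 110 of 3666 genes were higher and 165 lower in the cKO library, so more genes were lower than higher. With the adipocyte profile subtracted, 252 of 4131 genes were higher and 310 lower, again with more lower than higher. The subtraction was scaled in each library to remove all of the summed adipocyte marker level. Genes left with few CPM in either library were dropped.

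**Figure D4:**
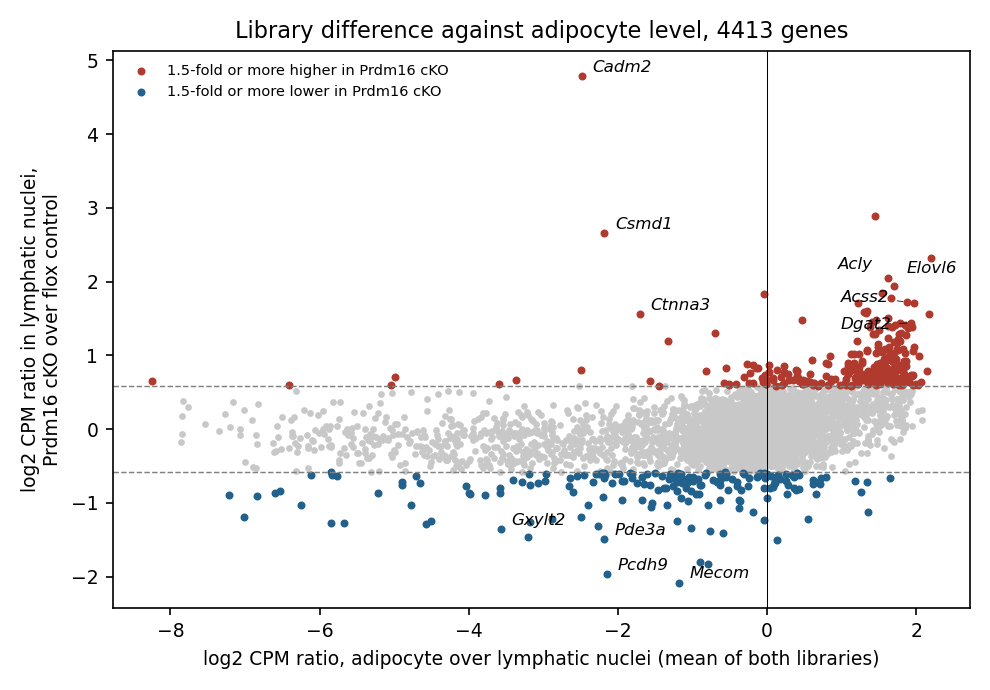
Each point is 1 of 4413 genes, with the log2 CPM ratio of adipocyte over lymphatic nuclei (mean of both libraries) on x and the log2 CPM ratio of Prdm16 cKO over flox control lymphatic nuclei on y; dashed lines mark 1.5-fold. Most red points (higher in cKO) lie right of 0, where adipocyte nuclei have more of the gene, and most blue points (lower in cKO) lie left of 0.

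The 12 genes with the highest cKO over control ratio included Acly, Acss2, Mlxipl and Elovl6. Acly (ATP citrate lyase), a source of cytosolic acetyl-CoA, had 676 CPM in cKO and 163 CPM in control lymphatic nuclei, a log2 ratio of 2.06 (1.84 to 2.27). Vascular endothelial nuclei had 749 CPM of Acly in the cKO and 257 CPM in the control library, and adipocyte nuclei 1495 and 697 CPM. Acss2, which makes acetyl-CoA from acetate, had 781 CPM in cKO and 236 CPM in control lymphatic nuclei, a log2 ratio of 1.73 (1.54 to 1.91). Mlxipl (ChREBP), a sugar-sensing transcription factor of lipid synthesis, had 425 CPM in cKO and 130 CPM in control lymphatic nuclei, a log2 ratio of 1.71 (1.47 to 1.97). Elovl6, a fatty acid elongase, had 519 CPM in cKO and 135 CPM in control lymphatic nuclei, a log2 ratio of 1.94 that became 1.09 without the top nucleus of each library. Ppp1r3b, a glycogen-targeting phosphatase subunit, had 102 CPM in cKO and 13.9 CPM in control lymphatic nuclei. A single cKO nucleus of 27047 UMIs, with 43.3 adipocyte marker UMIs per 10000, held 41 of the 87 Ppp1r3b, 150 of the 574 Acly and 204 of the 441 Elovl6 UMIs. The same nucleus held 133 of the 663 Acss2 and 83 of the 361 Mlxipl UMIs. Without the 5% of lymphatic nuclei with most UMIs, the log2 ratio was 1.41 for Acly, 1.49 for Acss2, 1.38 for Mlxipl and 1.08 for Elovl6. All of the genes named here were also higher in vascular endothelial nuclei of the cKO library.

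Some of the highest ratios rested on 1 other nucleus. Cadm2, a synaptic adhesion molecule, had 133 CPM in cKO and 4.82 CPM in control lymphatic nuclei, a log2 ratio of 4.79 (3.76 to 6.03). A cKO nucleus of 6179 UMIs, which passed the rule with 8.09 rule UMIs per 10000, held 107 of the 113 Cadm2 UMIs and 81 of the 100 UMIs of Csmd1, a large complement-control protein. Without the top nucleus of each library the log2 ratio was 0.97 for Cadm2 and 0.46 for Csmd1. Zfp949, a zinc-finger gene, was spread over more nuclei, with 107 CPM in cKO and 30.1 CPM in control lymphatic nuclei and a log2 ratio of 1.83 (1.32 to 2.36), 1.80 without the top nuclei. It was also higher in the cKO library elsewhere, at smaller ratios. Vascular nuclei had 87.3 CPM in the cKO and 39.8 CPM in the control library, and adipocyte nuclei 93.5 and 32.6 CPM. Others of the 12 were A830018L16Rik, Pgm3 and Aldh1l1, each more abundant in adipocyte than in lymphatic nuclei of both libraries.

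Among the 12 lowest ratios, Mecom, a zinc-finger transcription factor related to Prdm16 and abundant in vascular endothelium, had 55.4 CPM in cKO and 234 CPM in control lymphatic nuclei, a log2 ratio of -2.08 (-2.55 to -1.64). Of its 388 control UMIs 194 came from the nucleus of 30703 UMIs named above, which also had 21 Flt1 UMIs. Without the top nuclei the log2 ratio was -1.68. It was -1.097 without the 5% of nuclei with most UMIs and -1.138 as a mean of CPM per nucleus. In Reln-high nuclei it was -2.32, and in nuclei under 30 adipocyte marker UMIs per 10000 it was -2.596. Both subsets still include the nucleus of 30703 UMIs, which had 29.3 Reln and 5.54 adipocyte marker UMIs per 10000. Mecom was seen in 19.9% of cKO and 32.2% of control lymphatic nuclei. T and B cell nuclei of the cKO and control libraries gave 36.4% and 33.005%, so the lymphatic shares were no higher than background. Flt1 had 38.9 CPM in cKO and 79.5 CPM in control lymphatic nuclei, and 3 of 13 vascular endothelial genes (Mecom, Flt1 and Cdh13) were lower by at least 1.5-fold in the cKO library and none was higher, beside 4.08% lower over all genes. Without the 5% of lymphatic nuclei with most UMIs, 1 of the 13 was lower and the list median was -0.13 in place of -0.37. Pde3a, a cAMP phosphodiesterase, had 64.8 CPM in cKO and 182 CPM in control lymphatic nuclei, with 154 of its 302 control UMIs in 1 nucleus and a log2 ratio of -1.49 that became -0.75 without the top nuclei. It was -0.16 without the 5% of nuclei with most UMIs, -0.02 as a mean of CPM per nucleus and -0.40 with the looser gate, all short of 1.5-fold. For Pde3a the ratio was -2.78 in Reln-high nuclei and -1.32 in nuclei under 30 adipocyte marker UMIs per 10000, and both subsets include that 1 nucleus. Whether vascular RNA in these barcodes has a part in the lower levels was not tested.

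Pcdh9, a protocadherin, had 23.6 CPM in cKO and 92.2 CPM in control lymphatic nuclei, with a log2 ratio of -1.97 (-2.72 to -1.29). A single nucleus held 10 of its 20 cKO UMIs, the nucleus of 6179 UMIs named above, and another held 49 of its 153 control UMIs. Nova1, a splicing regulator, had 21.2 CPM in cKO and 60.3 CPM in control lymphatic nuclei, a log2 ratio of -1.51 (-2.32 to -0.77), while vascular nuclei had 75.3 CPM in the cKO and 74.5 CPM in the control library. Epha4, an ephrin receptor of the axon guidance list, had 41.2 CPM in cKO and 100 CPM in control lymphatic nuclei, a log2 ratio of -1.28 (-1.85 to -0.75). Within Reln-high nuclei alone Epha4 kept a log2 ratio of -1.35. Gxylt2, a sugar transferase of Notch-type repeats, had 48.3 CPM in cKO and 124 CPM in control lymphatic nuclei, a log2 ratio of -1.35 (-1.88 to -0.87), but -0.20 within Reln-high nuclei. Nav2, a neuron navigator gene, went the same way, with 36.5 CPM in cKO and 95.2 CPM in control lymphatic nuclei and a log2 ratio of -0.32 within Reln-high nuclei in place of -1.38, and 43 of its 158 control UMIs came from 1 nucleus. The mitochondrial gene mt-Nd4l had 38.9 CPM in cKO and 98.2 CPM in control lymphatic nuclei, and it was lower in the cKO library elsewhere too, with 81.3 CPM in cKO and 153 CPM in control vascular nuclei. The other genes of the 12 were Gm2682, Myrip, Iigp1, Skap1 and Fnbp1l.

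Reln-low nuclei were 19.1% of the cKO and 26.4% of the control lymphatic nuclei, and some but not all genes of that subset were lower in the cKO library over the whole class. Tgfa had 253 CPM in cKO and 454 CPM in control lymphatic nuclei, a log2 ratio of -0.84, and 0.13 within Reln-high nuclei. Foxp2 had 1270 CPM in cKO and 1951 CPM in control lymphatic nuclei, a log2 ratio of -0.62. Ackr4 had 34.2 CPM in cKO and 56.0 CPM in control lymphatic nuclei, a log2 ratio of -0.71, and 0.16 within Reln-high nuclei. Nrxn3, by contrast, was level, with 1340 CPM in cKO and 1312 CPM in control lymphatic nuclei, and so was Clca3a1, with 217 and 218 CPM. Within Reln-low nuclei alone, whose levels are given above, Tgfa, Foxp2 and Ackr4 were lower in the cKO library and Nrxn3 was higher. The parts that subset size and level within the subset had in the class sums were not tested.

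The lists of lymphatic biology differed little between the libraries. None of 18 lymphatic markers outside the rule reached 1.5-fold in either direction, with a median log2 ratio of -0.09. The 4 rule genes had a median of 0.08, but the same threshold on them chose the nuclei of both libraries. The 15 genes of all endothelium were likewise within 1.5-fold, with a median of -0.12. None of 10 valve and collector genes and none of 9 capillary genes reached 1.5-fold, with medians of 0.04 and -0.00. Among 18 genes of the VEGF-C and angiopoietin axis only Svep1, a matrix protein required for lymphatic vessel maturation, was past the limit, with 223 CPM in cKO and 134 CPM in control lymphatic nuclei, and the median was -0.09. Of 16 cell junction genes only Cd99l2 was higher and none was lower, with a median of -0.18. Of 19 axon guidance genes only Epha4 was lower, of 22 matrix and integrin genes only Eln (211 CPM in cKO and 367 CPM in control lymphatic nuclei), and of 12 BMP and TGF-beta genes only Bmp6 (84.8 and 140 CPM). Eln had a log2 ratio of -0.80, which became -0.39 without the top nucleus of each library. No Notch gene (6 compared) and no reelin pathway gene (7 compared) was past 1.5-fold. With 1.5-fold calls of 5.64% higher and 4.08% lower over all genes, these counts of at most 1 gene a list are near or under the background.

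**Figure D5:**
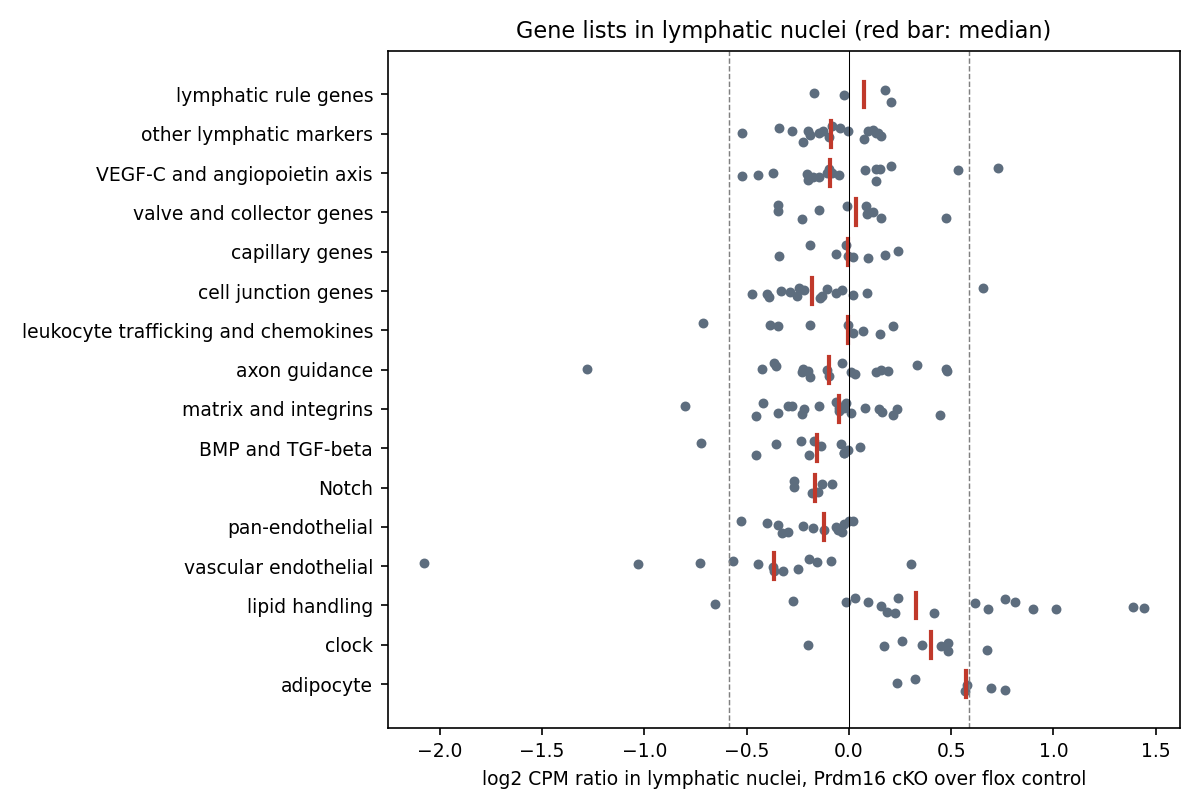
Each point is 1 gene of a list, placed by its log2 CPM ratio of Prdm16 cKO over flox control lymphatic nuclei; red bars are list medians and dashed lines mark 1.5-fold either way. The lymphatic, valve, capillary and guidance lists centre near 0, the vascular endothelial list lies to the left with a median of -0.37, and the lipid handling, clock and adipocyte lists lie to the right with medians of 0.33, 0.40 and 0.57.

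Lipid handling genes stood apart from these lists, with 8 of 18 higher, 1 lower and a median of 0.33. Dgat2, which makes triglyceride, had 576 CPM in cKO and 212 CPM in control lymphatic nuclei, a log2 ratio of 1.44 (1.24 to 1.64). Plin2, a coat protein of lipid droplets, had 97.8 CPM in cKO and 37.4 CPM in control lymphatic nuclei, a log2 ratio of 1.39 (0.90 to 1.89). Pparg, the adipocyte nuclear receptor, had 1254 CPM in cKO and 739.8 CPM in control lymphatic nuclei, a log2 ratio of 0.76 (0.64 to 0.88). Slc27a1, Scarb1, Dgat1 and Lpl were also higher, with 7 of 18 past the limit in all when TMM factors were used, and Cpt1a, the gate of mitochondrial fatty acid oxidation, was the lower one, with 30.6 CPM in cKO and 48.2 CPM in control lymphatic nuclei. Cd36, a fatty acid transporter of endothelium and adipocytes, was level at 763 CPM in cKO and 770 CPM in control lymphatic nuclei. The same list had a median log2 ratio of 0.39 in vascular endothelial nuclei and of -0.00 in all other nuclei. In lymphatic nuclei under 30 adipocyte marker UMIs per 10000, 1 of 11 lipid handling genes was higher and the median was 0.02. With the adipocyte profile subtracted, none of 12 was past 1.5-fold in either direction and the median was 0.04. The subtraction lowers or drops adipocyte-rich genes by construction, so it cannot decide whether lymphatic nuclei themselves differ in these genes.

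Clock genes leaned the same way in all classes, with a median log2 ratio of 0.40 in lymphatic, 0.48 in vascular endothelial and 0.28 in all other nuclei. In lymphatic nuclei this median was 0.10 both in nuclei under 30 adipocyte marker UMIs per 10000 and with the adipocyte profile subtracted, and 0.18 with Mrc1 left out of the exclusion genes, where no clock gene was higher and 1 was lower. Per3, a period gene of the circadian clock, was the 1 of 8 past the limit, with 173 CPM in cKO and 108 CPM in control lymphatic nuclei, a log2 ratio of 0.67. Tsc22d3 (GILZ), a glucocorticoid-induced gene and the 1 of 5 immediate early and stress genes past the limit, had 191 CPM in cKO and 120 CPM in control lymphatic nuclei, a log2 ratio of 0.67, and 257 CPM in cKO and 143 CPM in control vascular nuclei. None of 3 interferon genes was past the limit, and of 4 antigen presentation genes H2-D1 was lower, with 36.5 CPM in cKO and 55.4 CPM in control lymphatic nuclei. Ebf2, a transcription factor of brown fat precursors and the 1 higher of 5 Prdm16 partner genes, had 259 CPM in cKO and 145 CPM in control lymphatic nuclei, and Mecom was the 1 lower. Of the lists for other cells, no macrophage gene (3 compared), fibroblast gene (2) or B cell gene (1) was past 1.5-fold, while Wt1 of mesothelium and Skap1 of T cells were lower in the cKO library. The time of day at which animals were killed was not given in the sources used here.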

How the data were processed

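Nuclear RNA of 2 libraries, 1 per genotype, was deposited as gene by barcode tables of UMI counts, which the authors made with Cell Ranger 6.1.2 on mm10, per the submitters' processing notes. Whether intronic reads were counted was not given in the sources used here. The counts were not normalized. They were read with Python 3.11.15, numpy 2.4.6, scipy 1.17.1 and pandas 2.3.3, and 217 cKO and 449 control barcodes at 5% or more mitochondrial UMIs were left out. No doublet caller was run and no doublets were removed beyond the exclusion genes. UMIs were summed per class and library and given as CPM with exact Poisson intervals, log2 ratios with exact conditional binomial intervals and shares with Clopper-Pearson intervals. Counts under 3 were set to 3 in ratios between classes and between Reln subsets. T and B cell nuclei, the background, had at least 4 Themis and Pax5 UMIs and 4 per 10000. Adipocyte nuclei had at least 60 marker UMIs per 10000 and 2000 UMIs in all. Genes with 100 or more lymphatic UMIs were compared, and past 1.5-fold counted as different. Named were the markers, the 12 genes of largest lymphatic ratio, the 12 highest and 12 lowest genotype ratios with an interval on 1 side of 0, and list members; genes named for the Reln subsets and others outside this were chosen after their values were seen. The members and 30 lists were chosen with earlier results of these data known. Alternatives used TMM factors (edgeR 4.0.16) and size factors (DESeq2 1.42.0). Positions are from GENCODE M21 on GRCm38, which matched 32158 of 32285 gene identifiers. A few genes that these rules name are not reported here. The log2 ratios and their intervals were tested on simulated summed counts.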

Additional observations from a re-analysis of the deposited data

How the results depend on the processing

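No paired analysis was possible because each genotype has 1 library, and for the same reason no library could be left out. The lower lymphatic share in the cKO library kept its sign under every gate tried, from -0.17 points without nuclei that also pass the vascular rule to -0.76 points with Mrc1 left out of the exclusion. The main count of genes was 249 higher and 180 lower in the cKO library, of 4413 compared. Without the 5% of nuclei with most UMIs it became 151 higher and 121 lower of 3877. In nuclei under 30 adipocyte marker UMIs per 10000 it was 110 higher and 165 lower of 3666. In Reln-high nuclei it was 126 higher and 118 lower of 3078. The main count became 252 higher and 310 lower with the adipocyte profile subtracted. With each nucleus thinned to 1000 UMIs it was 597 higher and 566 lower of 4413. With no filter on low counts it was 3183 higher and 2191 lower, of a larger number of genes. List members past 1.5-fold, 27 of 200, became 16 of 154 in Reln-high nuclei, 42 of 200 when thinned and 119 of 372 unfiltered. The counts over all genes just given are their background, and they rose as well when thinned. The list counts were not tested against them. Without nuclei that also pass the vascular rule, which leaves fewer genes to compare, lymphatic nuclei were higher than vascular nuclei for 175 genes and lower for 54, and Reln-low nuclei higher than Reln-high nuclei for 52 and lower for 101. Of 220 values recomputed for 24 genes of the extreme ratios under settings other than scaling and the low-count filter, 153 stayed near the main value, 66 moved, and 1 changed sign, Fnbp1l, whose log2 ratio became 0.056 when thinned. The cause of these shifts was not tested. Thinning leaves few UMIs per gene, and depth limits all genes under 100 UMIs, among them Foxc2, Gata2, Ccl21a and Prdm16.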
